A study of Mus musculus with 6 samples.

Results

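Chemokines are small secreted proteins that steer white blood cells, and 10 of their genes were examined in the livers of mice lacking p14 in the liver. They were Cxcl1, Cxcl9, Cxcl10, Cxcl12, Cxcl13, Ccl2, Ccl5, Ccl6, Ccl9 and Ccl24, chosen by name from the 18193 genes that the array annotation pairs with a probe set of their own. These 10 genes had 18 such probe sets, 6 genes having several and 4 having 1. Each gene was read from its brightest probe set over all 6 arrays, and the others are given beside it. All mice were male C57BL/6 animals aged 6 weeks. There were 3 with a conditional knockout of p14 in the liver (KO 1 to KO 3) and 3 controls, labelled p14 WT (WT 1 to WT 3), with 1 array of whole-liver RNA per mouse. p14 is the product of Lamtor2, a subunit of the Ragulator complex on late endosomes. How the deletion was driven, in which liver cells, and whether the controls carried a floxed allele or a Cre transgene are not given in the sources used here. Values are log2 expression levels, so each unit is a doubling of the signal. Levels of different probe sets cannot be set against each other.

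Chemokines bind receptors with 7 membrane-spanning stretches on leukocytes and set up gradients on vessel walls and matrix. The inducible ones are switched on by interferons or by TNF and IL-1, while the homeostatic ones are made without such a stimulus and hold cells in place. In the liver, Kupffer cells (the resident macrophages), sinusoidal endothelium, stellate cells and hepatocytes are all known sources, and the ligands of CXCR3 bring in T and NK cells, those of CXCR2 neutrophils and those of CCR2 monocytes.

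The RefSeq promoter table (GRCm38.p6) held 7 of the 10 genes. The 250 bases before the start of 3 of them are shown, with or without exact matches to patterns of response elements known from inducible chemokines. Capitals mark matches on either strand to the core of the interferon-stimulated response element (GAAA, any 2 bases, GAAA) or to an NF-kappa-B site (GGGA, any 2 bases, TTCC). Cxcl10 lies at chr5:92348890-92349139 on the minus strand, Cxcl9 at chr5:92328080-92328329 on the minus strand and Cxcl1 at chr5:90890995-90891244 on the plus strand, each written 5′ to 3′ along its gene.
Cxcl10: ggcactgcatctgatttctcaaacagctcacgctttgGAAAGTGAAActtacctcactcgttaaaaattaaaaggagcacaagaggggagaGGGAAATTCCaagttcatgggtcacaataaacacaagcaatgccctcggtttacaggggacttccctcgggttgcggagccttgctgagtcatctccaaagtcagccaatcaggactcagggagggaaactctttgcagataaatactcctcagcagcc
Cxcl9: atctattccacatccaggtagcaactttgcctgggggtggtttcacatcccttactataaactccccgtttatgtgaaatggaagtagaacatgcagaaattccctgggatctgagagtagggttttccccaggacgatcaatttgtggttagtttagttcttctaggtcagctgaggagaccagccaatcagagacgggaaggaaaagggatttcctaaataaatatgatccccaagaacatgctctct
Cxcl1: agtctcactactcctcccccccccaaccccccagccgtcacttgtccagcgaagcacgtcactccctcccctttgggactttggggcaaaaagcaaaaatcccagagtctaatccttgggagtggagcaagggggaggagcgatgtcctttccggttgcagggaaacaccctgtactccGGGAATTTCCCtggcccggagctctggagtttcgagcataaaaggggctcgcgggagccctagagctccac
The Cxcl10 window held 1 interferon element, 213 to 204 bases before the start, and 1 NF-kappa-B site, 159 to 150 bases before it. The Cxcl1 window held 1 NF-kappa-B site that reads on both strands with an overlap, 71 to 61 bases before the start. Neither motif was found in this window of Cxcl9, Cxcl12, Cxcl13, Ccl6 or Ccl9, and the interferon-gamma-activated site TTCNNNGAA was found in 0 of the 7. Of all 32851 promoters in the table, 2.98% held the interferon element in the same 250 bases, 1.21% the NF-kappa-B site and 7.02% the interferon-gamma-activated site. These matches describe letters only. A site that departs from these patterns would not be found, so a window without a match, such as that of Cxcl9, may still hold a response element.

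Lamtor2 fell to 10.08, 10.19 and 10.11 in KO livers, against 11.32, 11.29 and 11.35 in WT livers (difference -1.19, limma adjusted p = 0.0104), a call that was lost without KO 2, WT 1, WT 2 or WT 3 (limma adjusted p between 0.0505 and 0.114). Between 9942 and 9991 genes reached a log2 value of 4 on the KO arrays and between 10011 and 10122 on the WT arrays. WT 2 carried skeletal muscle transcripts, with a mean over 10 muscle markers of 10.86 against at most 2.60 on any other array. The 18S rRNA controls measured 8.50 to 9.24 in KO and 7.77 to 8.44 in WT. The gap between the 3′ and 5′ control probe sets of pyruvate carboxylase was 3.51 to 3.58 in KO and 3.99 to 4.85 in WT, and the part of RNA quality in the differences was not tested. Hepatocyte markers checked the tissue: the mean of 8 of them, Alb and Ttr included, was 15.70 to 15.79 in KO and 15.69 to 15.77 in WT. Some of them, such as Alb at 16.16 to 16.28, lay near the highest value on these arrays, 16.327. Whether a difference could show at that level was not tested.

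A gene was tested if 3 or more of its 6 log2 values reached 4, and 9 of the 10 chemokines met that filter. No chemokine changed past the threshold: 0 of 9 had a limma adjusted p under 0.05, against 0.17% of the 10009 genes tested. Values for Cxcl9, Cxcl10, Ccl5 and Ccl6 were nonetheless lower in KO, with differences between -1.55 and -1.07. These were the 4 of 9 with an unadjusted limma p under 0.05, a mark passed in that direction by 10.1% of all genes. For Cxcl9, Cxcl10 and Ccl5 every KO array lay below every WT array, as in 14% of all genes, while 0 of 9 had every KO array above, as in 6.54% of all genes. The median difference over the 9 was -0.26, and -0.20 with Ccl2 counted in, beside -0.04 over all genes tested. A lower KO mean was found for 8 of the 9 and for 58.4% of all genes tested. With 3 arrays against 3 the smallest exact permutation p is 0.1, which those 3 genes had.

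**Figure D1:**
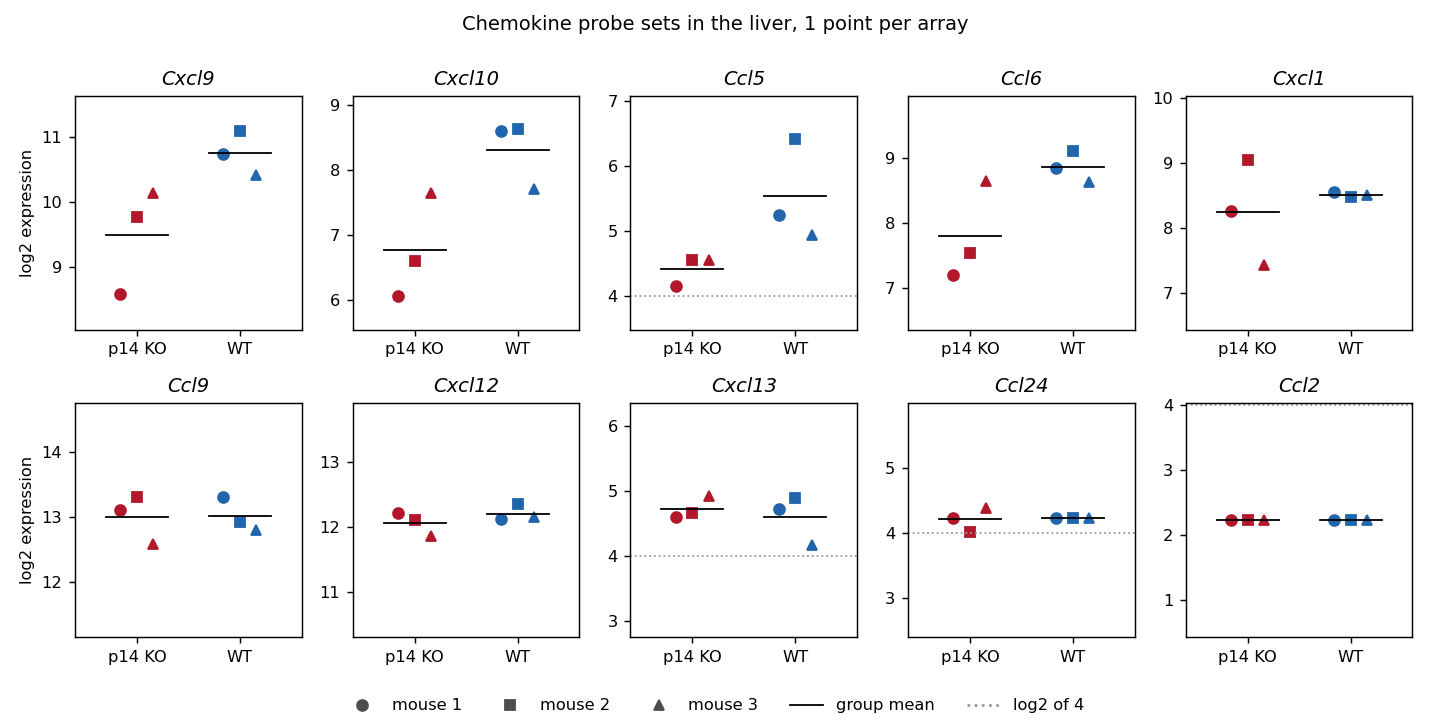
Log2 expression of each chemokine (brightest probe set) in p14 KO and WT livers, 1 point per array with the mouse number as its shape and the group mean as a line; each panel spans the same range of log2 units, and the dotted line is the log2 value of 4 used as a filter. Cxcl9, Cxcl10 and Ccl5 have all 3 KO points below all 3 WT points, Ccl6 has KO 3 among the WT points, and the other 6 overlap.

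Cxcl9 and Cxcl10 encode interferon-inducible ligands of CXCR3 and lie close together on chromosome 5, with only Art3 between them among protein-coding genes. Cxcl10 measured 6.06, 6.60 and 7.65 in KO livers, against 8.61, 8.64 and 7.71 in WT livers. The groups did not overlap, but KO 3 and WT 3 nearly met. KO livers thus held 34.1% of the WT signal (95% interval 15.2% to 76.5%), a difference of -1.55 (limma adjusted p = 0.282). Its SD was 0.81 in KO and 0.53 in WT (n = 3 each), and Cxcl10 had 1 probe set.

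Cxcl9 measured 8.58, 9.76 and 10.14 in KO livers, against 10.74, 11.09 and 10.41 in WT livers. KO 1 was the lowest of the 6, and KO 3 lay just under WT 3. The difference was -1.25, with a 95% interval of -2.31 to -0.20 and a limma adjusted p = 0.304. A further, dimmer probe set of Cxcl9 had a difference of -0.71 with overlapping groups (95% interval -1.55 to 0.13), with KO 1 and KO 2 tied at 4.97. The order of the mice was alike for both genes, KO 1 being lowest and WT 2 highest for each.

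Ccl5 encodes RANTES, a T cell and monocyte attractant made chiefly by T and NK cells. It measured 4.15, 4.55 and 4.55 in KO livers, against 5.25, 6.41 and 4.93 in WT livers. KO 2 and KO 3 were tied, close to the lower end of the measurable range, and WT 2 stood above all others. The difference of -1.11 (95% interval -2.09 to -0.14, limma adjusted p = 0.316) was -0.67 without WT 2, the array with muscle transcripts. Of 9 T and NK cell markers 7 had a probe set. Cd3e, Cd3d, Cd3g, Cd8a, Nkg7 and Gzma stayed below 4 on every array, at most 3.93. Cd4 passed the filter on dim, nearly constant values, at 4.79 on every array but KO 3, which read 4.96. These markers thus carry little information here. In whole-liver RNA, fewer cells of a type and less RNA per cell cannot be told apart.

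Ccl6 and Ccl9 encode related CC chemokines of macrophages and other myeloid cells, both ligands of CCR1, and their genes are neighbours on chromosome 11. Ccl6 measured 7.20, 7.53 and 8.64 in KO livers, against 8.84, 9.11 and 8.62 in WT livers. KO 1 and KO 2 were low while KO 3 lay just above the lowest WT array, so the groups overlapped. The difference was -1.07 (95% interval -2.03 to -0.11, limma adjusted p = 0.32), equal to 47.7% of the WT signal. The further probe set of Ccl6, whose name marks it as able to bind related transcripts, read 5.69, 5.67 and 6.74 in KO and 6.80, 7.16 and 6.56 in WT, the same picture at a difference of -0.81. Without KO 3 the difference of the brighter one was -1.50 and passed the threshold (limma adjusted p = 0.0493), and Ccl6 was then the only chemokine called. In that comparison 140 of the 10009 genes tested were called, against 17 with all arrays.

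Ccl9 did not share the pattern of its neighbour. It measured 13.11, 13.31 and 12.59 in KO livers, against 13.31, 12.92 and 12.80 in WT livers, with KO 3 lowest. The difference was -0.01, with a 95% interval from -0.57 to 0.56, and 0.19 (-0.39 to 0.76) on the further probe set. Whether Ccl6 and Ccl9 differ from each other in their response was not tested.

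**Figure D2:**
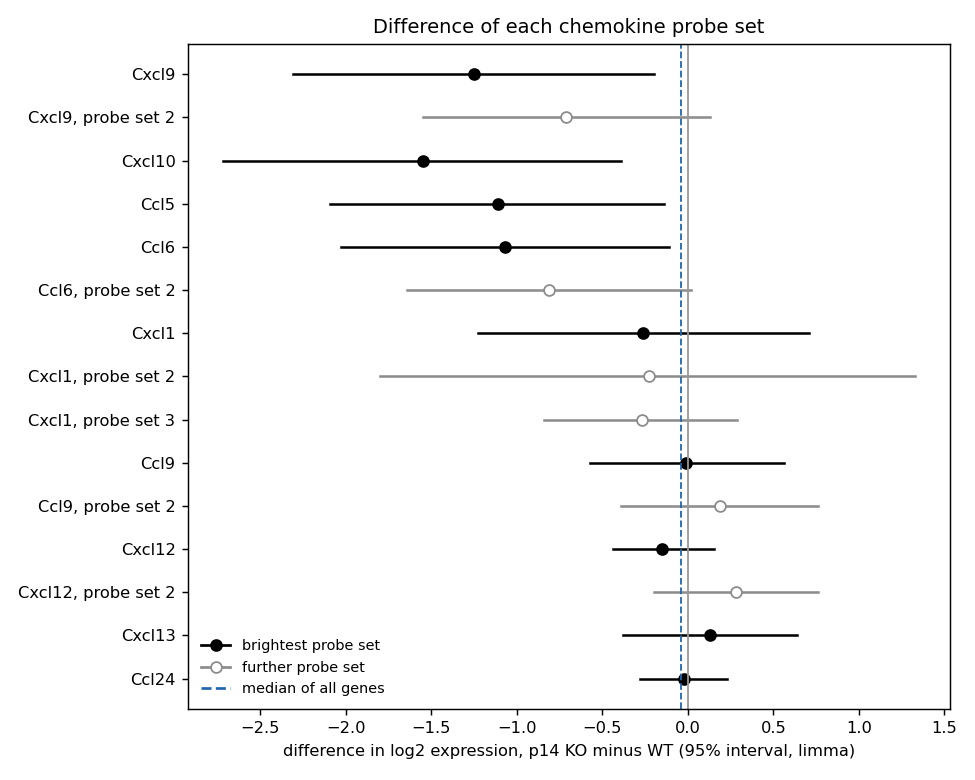
Difference in log2 expression, p14 KO minus WT, of each tested chemokine probe set with its 95% interval from limma; filled points are the brightest probe set of a gene, open points are further ones, and the dashed line is the median of all genes tested (-0.04). The intervals of Cxcl9, Cxcl10, Ccl5 and Ccl6 lie below 0 on the brightest probe set, before adjustment over all genes, and the rest span 0.

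Cxcl1 encodes a neutrophil attractant that acts through CXCR2 and is driven by NF-kappa-B. It measured 8.26, 9.04 and 7.43 in KO livers, against 8.55, 8.47 and 8.50 in WT livers. The KO mice spread widely on both sides of WT mice that hardly differed, with an SD of 0.80 in KO and 0.04 in WT (n = 3 each). By its name the brightest probe set of Cxcl1 can also bind related transcripts, like the further one of Ccl6. KO 2 was the highest and KO 3 the lowest of the 6 on the next probe set too, which has no such mark, at 8.76 and 6.24. The difference of -0.26 had a 95% interval from -1.23 to 0.71 (limma adjusted p = 0.761), and it was 0.15 without KO 3. The third probe set was tied at 5.72 on 4 arrays and read 4.92 on KO 3. Among neutrophil and monocyte markers, S100a8 measured 6.66, 4.55 and 5.49 in KO and 5.49, 5.05 and 4.89 in WT. S100a8 was thus highest in KO 1, the mouse with the middle Cxcl1 value of its group.

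Cxcl12, the homeostatic ligand of CXCR4, measured 12.21, 12.11 and 11.86 in KO livers and 12.12, 12.35 and 12.15 in WT livers. The interval of its difference was narrow, from -0.44 to 0.15 around -0.15, which leaves room for a KO level of 73.6% to 111% of WT. The next probe set of Cxcl12 pointed the other way, at 0.28 (95% interval -0.20 to 0.76), so no direction can be given for this gene. A further one stayed below 4 on all arrays.

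Cxcl13, the B cell attractant that binds CXCR5, was dim at 4.60, 4.66 and 4.93 in KO livers and 4.72, 4.89 and 4.18 in WT livers. Its groups overlapped, with a difference of 0.13 and a 95% interval from -0.38 to 0.64. Of 3 B cell markers with a probe set, Cd79a and Ms4a1 stayed at or below 2.21. Cd79b, a chain of the B cell receptor, read 4.55, 4.52 and 4.77 in KO livers and 4.60, 4.68 and 3.88 in WT livers, lowest on WT 3 as Cxcl13 was. Ccl24, an eosinophil attractant acting through CCR3, read 4.23, 4.01 and 4.38 in KO and 4.23 on all 3 WT arrays. Ccl24 thus passed the filter on tied, dim values, and no difference was detectable (-0.02, 95% interval -0.28 to 0.23). Ccl2, the monocyte attractant that binds CCR2, read 2.23 on all 6 arrays, near the lowest value of 2.185 in the table, and was not tested. Neither a presence nor a difference of Ccl2 can be read from these arrays.

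Markers of macrophages were lower on the same KO arrays. Of 12 Kupffer cell and macrophage markers, 12 were measured and 12 had a lower KO mean, 0 of them called, with a median difference of -0.86, beside 58.4% of all genes with a lower KO mean. Of the 12, 8 were lower at an unadjusted limma p under 0.05 (10.1% of all genes) and 7 with no overlap (14% of all genes). The mean of the 12 was 8.43, 8.84 and 9.74 on KO 1, KO 2 and KO 3, against 10.10, 10.11 and 9.99 on the WT arrays. KO 3 was thus nearest to the WT arrays in this list, as it was for Cxcl9, Cxcl10 and Ccl6. Marco, a scavenger receptor, measured 4.41, 5.53 and 6.53 in KO and 8.99, 8.08 and 7.62 in WT (limma adjusted p = 0.208). Cd5l, a protein secreted by macrophages, measured 10.76, 10.83 and 11.73 in KO and 12.17, 12.21 and 11.99 in WT (limma adjusted p = 0.250). Without KO 3 it passed the threshold (limma adjusted p = 0.0253), as Ccl6 did, among 140 of the 10009 genes tested. C1qa, a chain of complement C1q, differed by -0.90.

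Taken relative to the mean of the 12 macrophage markers on its own array, a comparison chosen after the values were seen, Ccl6 differed by -0.01. It then averaged -1.21 ± 0.11 in KO livers and -1.21 ± 0.19 in WT livers (SD, 3 mice each). On that scale Cxcl9 differed by -0.19, Ccl5 by -0.05 and Cxcl10 by -0.49, and the groups of all 4 genes overlapped (exact permutation p between 0.3 and 1.0). Cxcl1 differed by 0.80, Ccl9 by 1.05 and Cxcl12 by 0.91 on the same scale, also with overlap. The dim Cxcl13 and Ccl24 differed by 1.19 and 1.04, with every KO array above every WT array (exact permutation p = 0.1 for each). Before the list mean was taken off, they differed by 0.13 and -0.02. The list mean itself differed by -1.06, so a flat gene reads higher in KO on this scale. Their separation thus restates the lower macrophage markers. Set against the 8 sinusoidal endothelial markers, Cxcl9 differed by -0.83 with no overlap, and Cxcl10, Ccl5 and Ccl6 by -1.13, -0.69 and -0.64 with overlap. Cxcl13 and Ccl24 differed by 0.56 and 0.40 there, again with every KO array above every WT array, while Cxcl1, Cxcl12 and Ccl9 overlapped. The endothelial list mean differed by -0.42, so a flat gene reads higher in KO on this scale too. Set against the 8 hepatocyte markers, Cxcl9, Cxcl10, Ccl5 and Ccl6 differed by -1.26, -1.55, -1.12 and -1.07, all with no overlap. The hepatocyte mean was nearly the same in both groups, so these values almost repeat the differences without it. Ccl6, which overlapped without it, was parted only narrowly, with KO 3 at -7.14 and WT 3 at -7.07. The share of all genes with no overlap on these scales is not given here. The part of macrophage content in these differences was not tested.

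**Figure D3:**
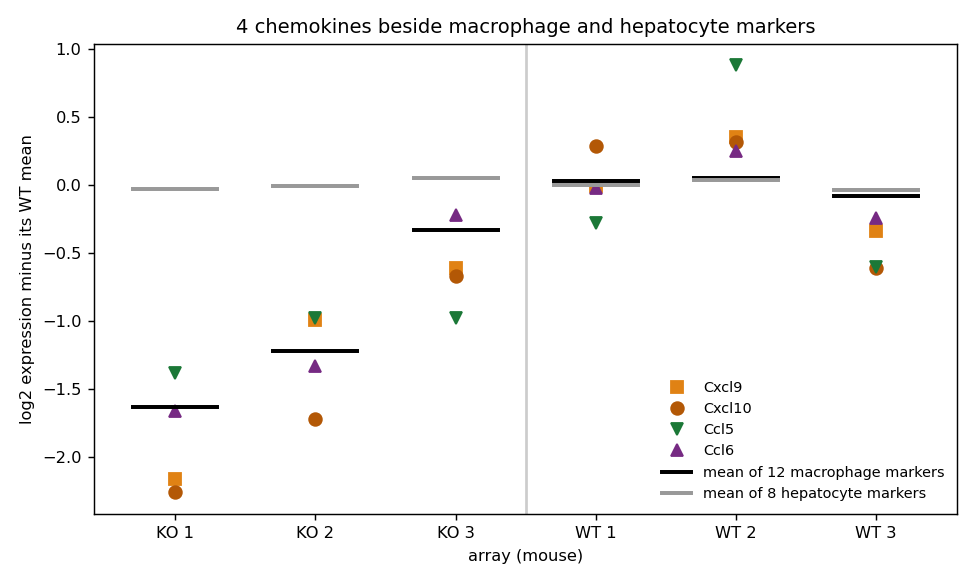
Log2 expression minus the WT mean of the same gene for 4 chemokines (points) on each array, with the mean of 12 Kupffer cell and macrophage markers (black bars) and of 8 hepatocyte markers (grey bars). On KO 1, KO 2 and KO 3 the macrophage mean stood at -1.63, -1.22 and -0.33 and Ccl6 at -1.66, -1.33 and -0.22, while the hepatocyte mean stood between -0.03 and 0.05.

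Of 8 sinusoidal endothelial markers 6 had a lower KO mean, beside 58.4% of all genes, with a median difference of -0.28. Of the 8, 2 were lower at an unadjusted limma p under 0.05 (10.1% of all genes) and 4 with no overlap (14% of all genes). Lyve1, a hyaluronan receptor of that endothelium, was the 1 called gene among them (difference -1.32, limma adjusted p = 0.0353). That call was lost without KO 1, KO 2, WT 1, WT 2 or WT 3 (limma adjusted p between 0.129 and 0.202). Cdh5 and Pecam1 differed by -0.68 and -0.86, each with no overlap and neither called. The endothelial list means were 8.77 to 9.32 in KO and 9.45 to 9.57 in WT. Of 8 stellate cell and fibroblast markers 7 were measured, 6 of them lower (58.4% of all genes) and 0 called, with a median difference of -0.39. Of the 7, 1 was lower at an unadjusted limma p under 0.05 (10.1% of all genes) and 2 with no overlap (14% of all genes). Their list means were 9.48 to 9.83 in KO and 9.76 to 10.38 in WT, highest on WT 2. Of 9 neutrophil and monocyte markers 3 were measured, 0 of them called, at a median of 0.37. Cholangiocyte markers gave 1 measured gene of 5, Epcam, at 0.08.

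The genes with profiles most like those of the variable chemokines were found by the root mean square distance between mean-centred values over the 6 arrays, among 9711 named genes. For Ccl6 they were Tyrobp, an adaptor of myeloid receptors (distance 0.13), Lgals3, which encodes galectin-3 (0.15), and Cd5l (0.16). Cxcl9 had Trim30d (0.19), Cd14, a lipopolysaccharide co-receptor (0.20), and Anln, an actin-binding protein of dividing cells (0.20). For Cxcl10 they were the transporter gene Abcc4 (0.25), Lgals3 (0.27) and Trim30d (0.28), and Cxcl9 ranked 4 at 0.31. Ccl5 had Ms4a4b, a membrane protein of lymphocytes (0.18), the pyruvate kinase gene Pkm (0.21) and Phlda3 (0.21). Cxcl1 had Nostrin (0.13), Zfp593 (0.16) and Rfx7 (0.17), and Ccl9 ranked 106 among its neighbours. Cxcl10, in turn, ranked 22 for Cxcl9, and Ccl6 ranked 12.

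Few other chemokine ligands were measurable. Of 12 further CXC, CX3C and XC ligands 3 passed the filter, and 0 were called. Cxcl16, a membrane-bound ligand of CXCR6, measured 5.72, 6.00 and 6.50 in KO livers, against 7.18, 6.73 and 6.97 in WT livers. Its groups did not overlap, and the difference was -0.88 (limma adjusted p = 0.242), with -0.38 on a further probe set. The transcript of Cxcl11, which in C57BL/6 mice carries a frameshift and yields no working CXCR3 ligand, differed by -0.30 (95% interval -0.67 to 0.08), and the platelet chemokine Pf4 by -0.35 (-0.80 to 0.09). Ppbp, another platelet chemokine, missed the filter at 3.35, 3.31 and 3.13 in KO and 5.16, 3.35 and 4.72 in WT. Cxcl2, Cxcl3 and Cxcl5, which like Cxcl1 bind CXCR2, stayed at or near the lowest value.

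Of 15 further CC ligands 13 had a probe set and 3 passed, with 0 called. Ccl25, the ligand of CCR9, was the 1 with every KO array above every WT array, at 6.87, 5.92 and 5.91 in KO and 5.73, 5.10 and 5.03 in WT. The gap between the groups was small beside the spread within KO, and the difference of 0.94 had a limma adjusted p = 0.305. Ccl27a differed by -0.21 and Ccl28 by 0.04. The other 10, among them Ccl3, Ccl4, Ccl7, Ccl8 and Ccl20, read at most 2.26 on any array.

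Receptors, carried by the incoming cells, were below the measurable range. Of 16 signalling receptors with a probe set 15 stayed below 4, at most 2.88, among them Cxcr3, Cxcr2, Cxcr4 and Ccr1. Ccr2 alone passed, at 4.91 on 5 arrays and 4.95 on KO 1, a tie of the kind seen for Ccl24. Among atypical receptors, which take up chemokines without signalling to migration, Ackr2 differed by -0.16 and Ackr4 by -0.35, neither called. Dpp4, a peptidase that trims chemokines such as Cxcl10 and Cxcl12, lay between 11.50 and 11.59 in KO livers and between 11.49 and 11.61 in WT livers.

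**Figure D4:**
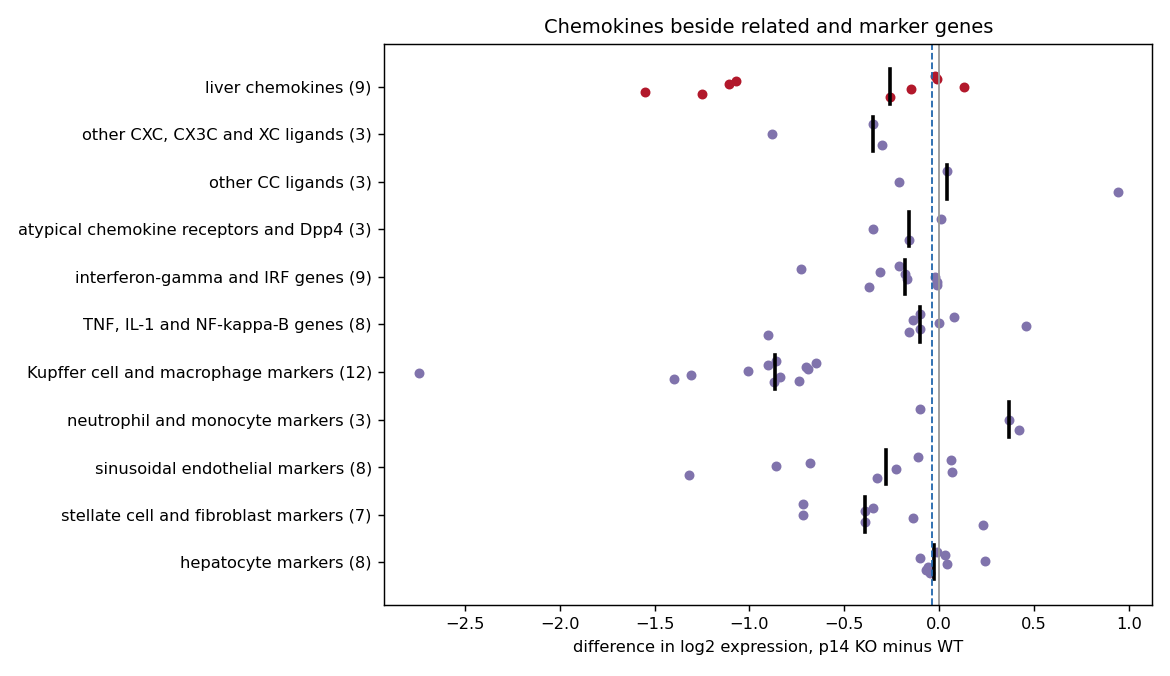
Difference in log2 expression, p14 KO minus WT, of each tested gene (points) in the chemokine set and in lists of related genes and cell type markers with at least 3 tested genes; black bars are list medians, numbers in brackets are the genes tested, and the dashed line is the median of all genes. Macrophage markers have the median furthest below 0 of the lists drawn (-0.86), against -0.26 for the 9 tested chemokines and -0.03 for hepatocyte markers.

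Genes that switch on inducible chemokines were read next. Of 10 genes of interferon-gamma signalling and the IRF family with a probe set 9 were tested, all 9 with a lower KO mean (58.4% of all genes). Of these 0 were called, and the median was -0.18. At an unadjusted limma p under 0.05, 2 were lower (10.1% of all genes). Irf8, Ifngr1 and Jak2, 3 of the 9, were lower with no overlap (14% of all genes). For 3 of the 9 the difference was only -0.02 or -0.01, among them the kinase gene Jak1, which had a further probe set at 0.55 (limma unadjusted p of 0.0191). Irf8, a transcription factor of myeloid cells, measured 5.74, 6.44 and 6.43 in KO livers, against 6.96, 6.86 and 6.99 in WT livers (difference -0.73, limma adjusted p = 0.255). Ifngr1, the binding chain of the interferon-gamma receptor, measured 8.09, 8.34 and 8.63 in KO and 8.76, 8.72 and 8.69 in WT, with a difference of -0.37. Irf1, the interferon-induced activator of Cxcl9 and Cxcl10, overlapped between groups at -0.18 (95% interval -0.71 to 0.36). Jak2 differed by -0.17 with no overlap, though its further probe set lay at 0.05, and Irf7 differed by -0.31. Ifng itself read 2.18 on all arrays.

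Of 11 TNF, IL-1 and NF-kappa-B genes 8 were tested, 6 with a lower KO mean, a share not far from that of all genes, 0 called, and a median of -0.10. Il1b measured 3.72, 3.86 and 5.44 in KO livers, against 5.38, 5.50 and 4.84 in WT livers, with KO 3 again among the WT arrays and a difference of -0.90 (95% interval -2.12 to 0.32). Tnfrsf1a, the main TNF receptor, differed by -0.16, Rela by -0.14 and Il1r1 by 0.46, and each had an interval that spans 0. Nfkbia, a feedback inhibitor and target of NF-kappa-B, differed by 0.08, and its 4 further probe sets lay between -0.01 and 0.30. Tnf stayed below 4 on all arrays, reaching 3.84 on KO 2, the array with the highest Cxcl1.

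How far the 4 lower chemokines stand out depended on the arrays. The count at an unadjusted limma p under 0.05 was 4 of 9 with all arrays, beside 10.1% of all genes lower at that mark. Without both KO 3 and WT 2 it was also 4 (11.4% of all genes). It was 3 without KO 3 (12.2% of all genes) or without WT 3 (6.81%), and 2 without KO 1 (7.24%). Only 1 was left without KO 2 (8.0%), without WT 1 (6.7%) or without WT 2 (9.39%), near the share of all genes. The 3 genes whose groups did not overlap, Cxcl9, Cxcl10 and Ccl5, had no overlap with any single array left out, which their order on all arrays already fixed. Cxcl12 joined them without KO 1, Cxcl1 without KO 2, and Ccl6 without KO 3 or without WT 3. The count with no overlap was thus 3 or 4 of 9, and all genes with that order made up 17.8% to 23.5% in those comparisons.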

How the data were processed

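Total RNA of 6 livers, 3 KO and 3 WT, was hybridised to Affymetrix mouse arrays, 1 per mouse. Each mouse is a separate biological replicate per the labels. The values the authors deposited are taken as log2 expression levels per probe set. The submitters' processing notes name GCRMA 2.16.0 and R 2.9.1 and no settings. No label states the scale, and log2 was read from the range, 2.185 to 16.327. GCRMA takes off a sequence-based background and normalises the arrays together, and 28.9% of values sat at the lowest level, so dim genes carry little information.

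Of 45101 probe sets, 34945 are paired with 1 gene symbol by the platform annotation. Each of 18193 genes was represented by its brightest probe set, and the 10009 genes that reached log2 4 in 3 or more arrays were tested. limma 3.58.1 under R 4.3.3 compared KO with WT (lmFit, eBayes, two-sided, no covariates), with p-values adjusted by Benjamini and Hochberg over all genes tested and a threshold of 0.05. Further probe sets come from a fit to every probe set. The fit was tested on simulated data for KO against WT over 10009 genes, with 50 genes changed by each fold. It found 48% of those changed 1.5-fold, 84% of the 2-fold, 80% of the 4-fold and 94% of the 8-fold ones, and made 9 false calls. The simulated noise came from a model of the variances over all genes, and more genes were changed than were called in the data. These shares are thus not the chance of calling a chemokine. The standard errors of Cxcl9, Cxcl10, Ccl5 and Ccl6 were 0.39 to 0.47. The members, gene lists and tests were chosen with earlier results of these data known. All 10 members are named. Of each related list the called genes or up to 4 with the smallest p, and of each marker list up to 3, were named, and other list genes, such as Irf1, Nfkbia, Tnf and Ppbp, were chosen after their values were seen. Neighbouring profiles were sought for members spanning at least 1 log2 unit. Alternatives covered the filter, normalisation, background, probe sets, variance model, array weights, a replicate block and arrays left out. Precision is limited by the 6 arrays. The replicate numbers were not found to pair the mice (correlations of same-numbered deviations over 10009 genes were -0.09, -0.08 and -0.14). Promoter sequences are from RefSeq, GRCm38.p6. Figures were drawn with matplotlib 3.10.9.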

Additional observations from a re-analysis of the deposited data

How the results depend on the processing

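Across 18 alternatives the differences of Cxcl9, Cxcl10, Ccl5 and Ccl6 kept their sign wherever they were tested, between -1.58 and -0.80, -1.99 and -1.20, -1.41 and -0.67, and -1.50 and -0.77. Only Ccl6 passed the threshold under any of them, at -1.50 without KO 3 (limma adjusted p = 0.0493). The number of chemokines called was 0 in the main comparison and 0 to 1 with 1 array left out. At an unadjusted p under 0.05 it was 1 of 10 with no filter, beside 5.06% of all genes lower at that mark. It was 2 of 9 with a replicate block (9.08% of all genes) and 0 of 9 with an ordinary 2-sample test (7.4%), the cause not being tested. It was 3 of 6 with a log2 value of at least 5 (10.4% of all genes), under which Ccl5 was not tested. Over all genes, 17 were called. With no filter 3 were, by the ordinary test 3, without both KO 3 and WT 2 3, and with 1 array left out 1 to 140, the highest without KO 3. The replicate block called 0 (limma, 1235 genes at an unadjusted p under 0.05) and changed no call among the chemokines, while Lamtor2 was not called under it (limma adjusted p = 0.116).

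The median chemokine difference of -0.26 was -0.67 with the stricter filter, which left 6 chemokines, and -0.11 without both KO 3 and WT 2. With 1 array left out it ran from -0.66 without KO 2 to -0.11 without KO 3. Differences near 0 changed sign. Ccl24 was 0.04 after median centring and 0.03 after quantile normalisation. Ccl9 was 0.06 after median centring, 0.09 with the mean of its probe sets, 0.01 with array weights and 0.15 without both arrays. Cxcl1 was 0.13 without both arrays. Cxcl12 was 0.11 with the mean of its probe sets and 0.02 without both arrays, and Cxcl13 was -0.01 with that mean. With 1 array left out the ranges were -0.11 to 0.07 for Ccl24, -0.16 to 0.20 for Ccl9, -0.66 to 0.15 for Cxcl1 and -0.08 to 0.28 for Cxcl13. Dim readings limit Ccl2, Ccl24, Cxcl13 and the receptors.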
